A study of Rattus norvegicus with 23 samples.

Results

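Aggregates given 120 ng/ml sepiapterin were compared with aggregates given phosphate-buffered saline (PBS), both taken at the 12 hour time point (T12). The comparison used 6 of the 23 libraries of the series, 3 with sepiapterin (samples 105, 106 and 107) and 3 with PBS (control samples 10, 11 and 12). All were 3D aggregates, spheres that dissociated cells form in suspension, made from the brains of Sprague Dawley rats at embryonic day 15 and kept for 14 days under agitation before RNA was sequenced. The libraries were chosen by time and treatment, and, for control samples 10 and 11, by file name. Each of these 2 samples had a pair of libraries whose titles and file names contradict each other on which carries the letter b. The library whose file name lacks the b was used here, and its partner is called the other library below. The protocol in the labels puts the 6 and 12 hour samples in a first library batch, and the 24 hour samples with repeats of 2 of the 12 hour controls in a second. The labels do not settle which library of each pair is the repeat. They also do not say that the samples of a group were separate cultures, and the spread behind each p-value is then that between these samples, which may be technical.

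Sepiapterin is a precursor in the salvage route to tetrahydrobiopterin, in which sepiapterin reductase and then dihydrofolate reductase act on it. Tetrahydrobiopterin is the cofactor of phenylalanine, tyrosine and tryptophan hydroxylase and of the nitric oxide synthases, so it stands upstream of dopamine, serotonin and nitric oxide in the brain. The title of the series asks about sapropterin, the drug form of tetrahydrobiopterin, in patients with phenylketonuria. The deposited tables give Ensembl gene identifiers alone, and 0 of the 32494 identifiers matched a symbol in the reference table used here. The genes of tetrahydrobiopterin metabolism and the markers of brain cell types were therefore not examined, and the genes below carry identifiers in place of names, without a function. In bulk libraries fewer cells of a type and less RNA per cell cannot be told apart.

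The sepiapterin and control libraries of T12 differed as libraries before any gene was compared. Reads assigned to genes numbered 23783206 to 24637779 with sepiapterin and 20217962 to 21901345 in controls. Reads outside any gene made up 16.4, 16.4 and 16.7% of the alignments tallied in sepiapterin samples 105, 106 and 107, and 14.8, 15.6 and 15.6% in control samples 10, 11 and 12. Reads aligned to several places made up 23.5 to 23.8% with sepiapterin and 24.4 to 24.8% in controls. None of these 3 measures overlapped between the groups, and each gave p = 0.1 in a two-sided exact permutation test, the smallest that 3 against 3 libraries can give. At 6 and at 24 hours all 3 measures overlapped between sepiapterin and control. At a common depth of 16991417 reads, 16711 to 16824 genes would be detected in the T12 sepiapterin libraries and 16639 to 16739 in the T12 controls, and these ranges overlap. The spread between libraries was alike at T12, with a root mean square standard deviation of 0.173 log2 units with sepiapterin and 0.174 in controls. Controls of 0, 6 and 24 hours had 0.242, 0.162 and 0.198, and the sepiapterin libraries of 6 and 24 hours 0.178 and 0.207. Sample 107 lay farthest out, at 0.247 and 0.26 log2 units from the other sepiapterin libraries and 0.27 to 0.305 from the controls.

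**Figure D1:**
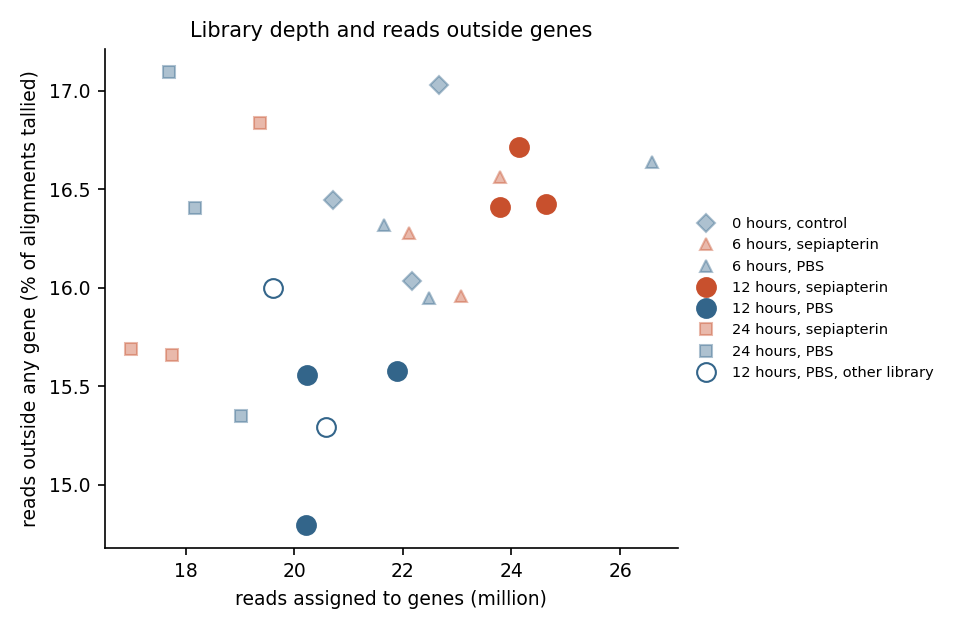
Reads outside any gene, as a percentage of the alignments tallied, against the number of reads assigned to genes, 1 point per library. The 3 sepiapterin libraries of 12 hours (filled red circles) sit above 16.4% and to the right of the 3 controls (filled blue circles), which sit below 15.6%, while the groups overlap at 6 and 24 hours.

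At 12 hours 10 genes differed between the sepiapterin and control libraries, 7 of them higher and 3 lower than in controls. Such genes are called changed below, whatever the source of the difference. Of the genes that rose, the leading pair were the abundant ENSRNOG00000018126, 1.34-fold higher, and ENSRNOG00000010210, 1.24-fold higher. Of those that fell, the scarce ENSRNOG00000012404 was 2.83-fold lower and the abundant ENSRNOG00000013009 1.23-fold lower. The 10 genes are 0.0713% of the 14027 tested with edgeR's quasi-likelihood test at a Benjamini-Hochberg adjusted p under 0.05, the 7 that rose 0.0499% and the 3 that fell 0.0214%. All 10 had sepiapterin libraries wholly above or wholly below the controls, which was also so for 24.3% of all genes tested (1607 above and 1804 below). With samples 10 and 11 taken by title in place of file name, 3 genes were changed, 2 of them among the 10. Those 2, ENSRNOG00000012404 and ENSRNOG00000013009, both fell. An unadjusted p under 0.05 was reached by 2041 genes, 1011 higher and 1030 lower. The part of depth in these counts was not tested. With the share of reads outside genes as a covariate, edgeR called 0 genes, while 1361 fell under 0.05 before adjustment. At 12 hours this share does not overlap between the groups, so the lost calls do not show that the differences went with it. The log2 fold changes under it were -1.23 for ENSRNOG00000012404, -0.31 for ENSRNOG00000013009, 0.27 for ENSRNOG00000018126 and 0.25 for ENSRNOG00000010210. The spread was estimated over 21 libraries of all times. Without the 0 hour libraries 99 genes were changed (64 higher, 35 lower), and without the 0 and 24 hour libraries 389 (213 higher, 176 lower), the 10 among them in both fits.

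**Figure D2:**
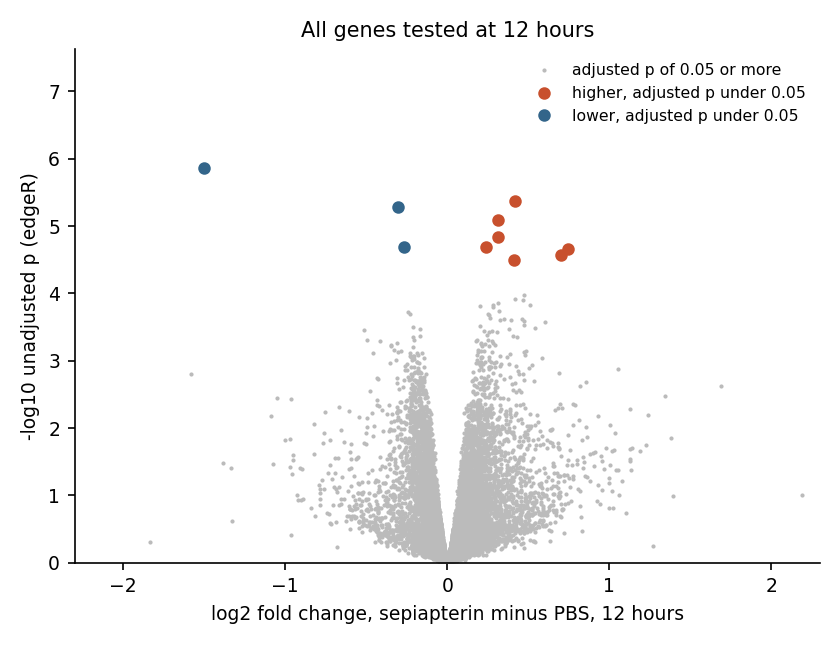
Negative log10 of the unadjusted edgeR p against the log2 fold change (sepiapterin minus PBS at 12 hours), 1 point per gene tested. The 7 genes that rose (red) and the 3 that fell (blue) are marked, and all of them but ENSRNOG00000012404 have log2 fold changes between -0.30 and 0.74.

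ENSRNOG00000018126 rose. It stood at 327, 316 and 329 TMM-scaled CPM, reads of the gene relative to the scaled library total, in sepiapterin samples 105, 106 and 107, and at 227, 259 and 240 CPM in control samples 10, 11 and 12. All sepiapterin libraries lay above all controls, with little spread among them. The means were 324 ± 6.79 CPM with sepiapterin and 242 ± 15.9 CPM in controls (SD, n = 3 each). The log2 fold change was 0.42 ± 0.07 (SE) and the adjusted p 0.024. The other libraries of samples 10 and 11 stood at 252 and 288 CPM, below every sepiapterin library but above the libraries of the same samples used as controls. With these in their place the log2 fold change was 0.31 and the adjusted p 0.081. The gene lost its call in 10 of 19 alternatives, which gave adjusted p-values of 4.7e-05 to 0.59.

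ENSRNOG00000010210 rose by a similar amount. It stood at 183, 180 and 197 CPM with sepiapterin and at 137, 166 and 148 CPM in controls. The groups did not overlap, and control sample 11 came nearest to the sepiapterin libraries. The means were 187 ± 8.89 CPM with sepiapterin and 150 ± 14.7 CPM in controls (SD, n = 3 each). On the log2 scale it was higher by 0.31 ± 0.06 (SE), adjusted p 0.028. The other library of sample 11 stood at 181 CPM, among the sepiapterin libraries, and that of sample 10 at 154 CPM. With these 2 libraries as controls the log2 fold change was 0.21 and the adjusted p 0.095. Adjusted p-values over its 19 alternatives ran from 0.00043 to 0.51, and the call was lost in 11.

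ENSRNOG00000012404 fell and was the largest change among the 10 genes. It stood at 0.92, 1.02 and 0.82 CPM with sepiapterin, from 20 to 25 reads per library, and at 2.85, 2.51 and 2.52 CPM in controls, from 51 to 58 reads. No library of either group came near the other group. The means were 0.92 ± 0.10 CPM with sepiapterin and 2.63 ± 0.20 CPM in controls (SD, n = 3 each). The log2 fold change of -1.50 ± 0.23 (SE) had the smallest adjusted p of the comparison, 0.019. The other libraries of samples 10 and 11 stood at 2.28 and 2.49 CPM, on the side of the controls, and with them in place the log2 fold change was -1.39 and the adjusted p 0.029. The call held in 12 of 18 alternatives, with adjusted p-values of 0.001 to 0.59. The settings that ended it included those without sepiapterin sample 106 or 107, without control sample 10, with control sample 12 as the only control and with the covariate.

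ENSRNOG00000013009 fell by less but from deep counts, of 3833 to 4388 reads per sepiapterin library and 4051 to 4662 per control. It stood at 184, 164 and 158 CPM with sepiapterin and at 212, 199 and 214 CPM in controls. The groups did not overlap, and sepiapterin sample 105 and control sample 11 came nearest to each other. The means were 169 ± 13.9 CPM with sepiapterin and 208 ± 8.13 CPM in controls (SD, n = 3 each). The fit put the log2 fold change at -0.30 ± 0.05 (SE), adjusted p 0.024. The other libraries of samples 10 and 11 stood at 215 and 204 CPM, close to their partners, and gave a log2 fold change of -0.32 with an adjusted p of 0.029. Over the 19 alternatives the adjusted p ran from 1e-04 to 0.59, and the call held in 12.

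**Figure D3:**
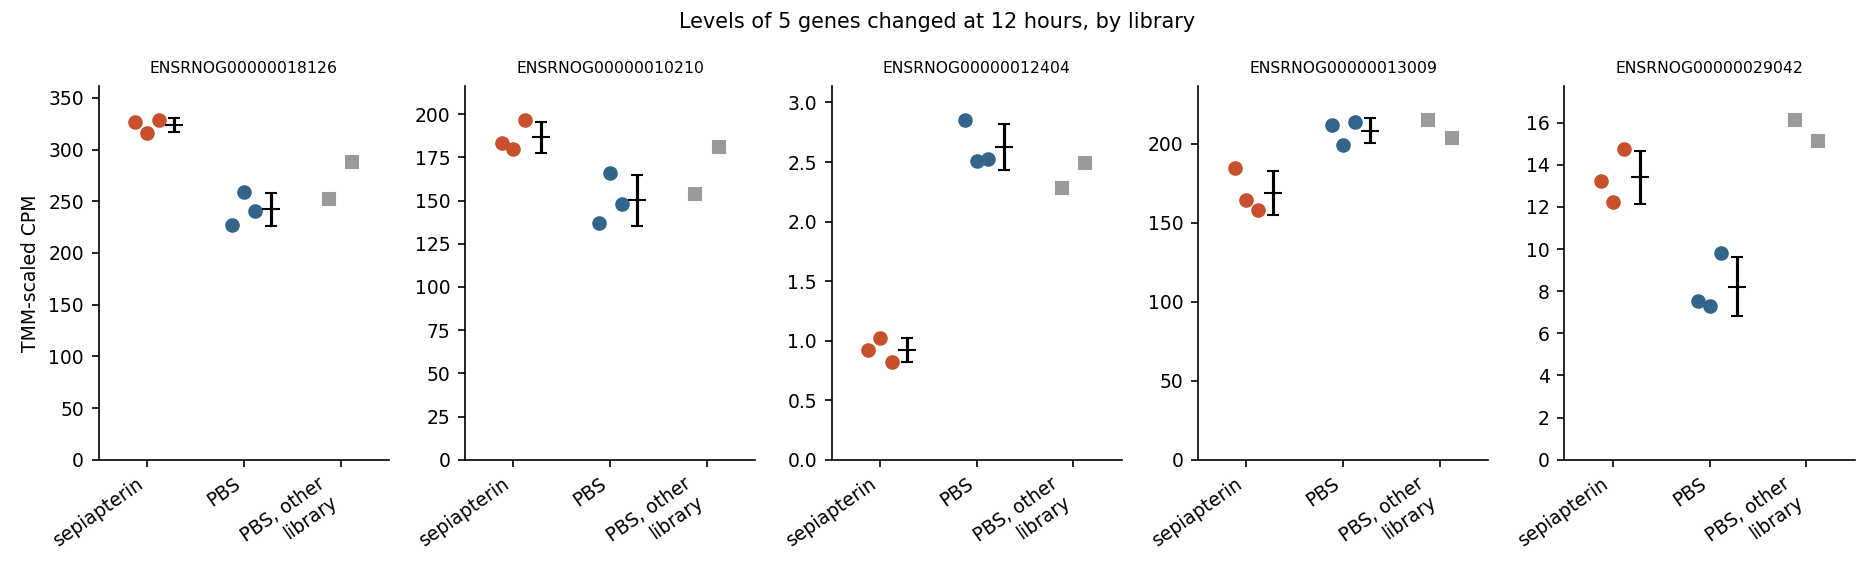
TMM-scaled CPM of 5 genes changed at 12 hours, 1 point per library, with the mean and SD of the 3 sepiapterin libraries (red) and the 3 PBS libraries (blue), and the other libraries of samples 10 and 11 (grey squares). In 3 of the genes the grey squares lie on the side of the PBS libraries, in ENSRNOG00000010210 1 of them reaches the sepiapterin libraries, and in ENSRNOG00000029042 both lie above them.

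With the other libraries of control samples 10 and 11 in place, each of the 7 genes that rose lost its call. Their edgeR adjusted p-values were then 0.081 to 0.95. Of the 7, ENSRNOG00000029042 alone also lost its rise. It stood at 13.2, 12.2 and 14.7 CPM with sepiapterin and at 7.53, 7.32 and 9.82 CPM in control samples 10, 11 and 12, which made the log2 fold change 0.70 ± 0.13 (SE) and the adjusted p 0.042. The other libraries of samples 10 and 11 stood at 16.1 and 15.1 CPM, above every sepiapterin library. With them as controls the log2 fold change was -0.03 and the adjusted p 0.95, so no difference in either direction was seen. The library used minus the other library of the same sample came to -1.09 log2 units in sample 10 and -1.04 in sample 11. Adjusted p-values over its 18 alternatives ran from 0.0014 to 0.95, and the call held in 7.

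The remaining 5 genes changed by 1.18- to 1.68-fold. The 4 that rose averaged 8.15 to 127 CPM with sepiapterin and 4.84 to 108 CPM in controls, with log2 fold changes of 0.24 to 0.74 and adjusted p-values of 0.039 to 0.044. The third gene that fell stood at 124, 126 and 115 CPM with sepiapterin and at 146, 146 and 147 CPM in controls, and its log2 fold change was -0.27 ± 0.05 (SE), adjusted p 0.039. Its controls were nearly level, and the other libraries of samples 10 and 11, at 144 and 139 CPM, stayed above every sepiapterin library. All 5 lost their calls with the other libraries as controls, at adjusted p-values of 0.081 to 0.15, and kept their direction. Over all 10 genes, the other libraries lay on the control side of every sepiapterin library for 8. The other libraries come from the same samples as the controls, and the share of all genes with this placement was not counted. For each of the 7 genes that rose, the control libraries of both samples 10 and 11 were lower than their partners. The smallest of these differences was -0.001 log2 units, in sample 10. The share of all genes with such a shift was not counted either. The calls were made on the control libraries, so that shift is not independent of the choice.

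The 2 libraries of samples 10 and 11 were also compared with each other. Across the 11963 genes whose log2 CPM averaged 1 or more, the root mean square difference between both libraries of a sample was 0.171 log2 units for sample 10 and 0.164 for sample 11. The mean of the 2 differences had a root mean square of 0.142. The mean of the 3 sepiapterin libraries minus the mean of the 3 controls had 0.13, but it averages over more libraries, so these sizes do not rank library against treatment. The differences of the 2 samples correlated at 0.45 across genes, which are not independent replicates.

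Most genes were measured closely enough to bound a change at 12 hours between the libraries used. The 95% interval of the log2 fold change lay within 1.5-fold either way for 82.4% of the genes tested and within 2-fold for 93.5%. These intervals hold the spread within groups but not the choice between paired control libraries. For ENSRNOG00000029042 the interval was 0.42 to 0.98, but the log2 fold change with the other libraries as controls was -0.03. The share of all genes that left their interval in this way was not counted. A fitted change of 1.5-fold or more was found in 261 genes and one of 2-fold or more in 37, of which ENSRNOG00000012404 alone passed the test. The precision differed with the level of a gene. The median standard error was 0.373 log2 units in the 1334 genes averaging under 1 CPM, of which 0 were called, and 0.0484 in the 2584 genes at 100 CPM or more, of which 5 were called. Between these levels 2 of 3016 genes were called from 1 to 10 CPM and 3 of 7093 from 10 to 100 CPM. Of the 19435 identifiers with reads at T12, 48 had reads in all sepiapterin libraries and 0 in all controls, and 26 the reverse. They are too thin to compare, with at most 9 and 10 reads summed over 3 libraries.

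The 10 genes were then read at 6 and 24 hours, in other libraries with their own controls. The spread of each gene was estimated over all times together, so the tests at different times are not independent. The 3 genes that fell at 12 hours were also lower at both other times and passed the test at 24 hours, where 5.83% of all genes did and 3.38% were lower. ENSRNOG00000012404 stood at 1.48, 1.69 and 1.56 CPM with sepiapterin and 3.50, 2.00 and 2.70 CPM in controls at 6 hours, which gave -0.78 ± 0.21 on the log2 scale (SE, adjusted p 1). At 24 hours it stood at 1.82, 2.56 and 2.33 CPM with sepiapterin and 3.78, 4.52 and 2.82 CPM in controls, which gave -0.73 ± 0.20 on the log2 scale (adjusted p 0.036). Sepiapterin and control libraries of this gene did not overlap at any of the 3 times. ENSRNOG00000013009 likewise did not overlap at any time, with log2 fold changes of -0.16 ± 0.05 at 6 hours (adjusted p 1) and -0.40 ± 0.05 at 24 hours (adjusted p 0.00026). Both genes were named from those without overlap at 12 hours, where 24.3% of all genes tested did not overlap. The share of all genes without overlap at 6 or 24 hours was not counted. The third gene that fell had -0.12 ± 0.05 at 6 hours (adjusted p 1) and -0.27 ± 0.05 at 24 hours (adjusted p 0.0062).

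The 7 genes that rose at 12 hours were not called at the other times. Of them, 0 passed edgeR's test at 24 hours, where 2.45% of all genes were called higher, although 6 had a positive log2 fold change there. At 6 hours 3 of the 7 were positive, in a comparison where 0% of all genes were called and 339 had an unadjusted p under 0.05. ENSRNOG00000018126 averaged 268 ± 22.2 CPM with sepiapterin and 272 ± 11.1 CPM in controls at 6 hours, and 331 ± 35.1 CPM with sepiapterin and 311 ± 18.8 CPM in controls at 24 hours (SD, n = 3 each). Its T12 controls, at 242 CPM, were the lowest group mean of the 7 groups, and its T12 sepiapterin libraries were level with the 0 hour controls at 323 ± 14.0 CPM. ENSRNOG00000010210 kept to 146 to 150 CPM in the controls of all 4 times, as group means. With sepiapterin it averaged 139 ± 1.69 CPM with sepiapterin at 6 hours and 163 ± 9.34 CPM at 24 hours.

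**Figure D4:**
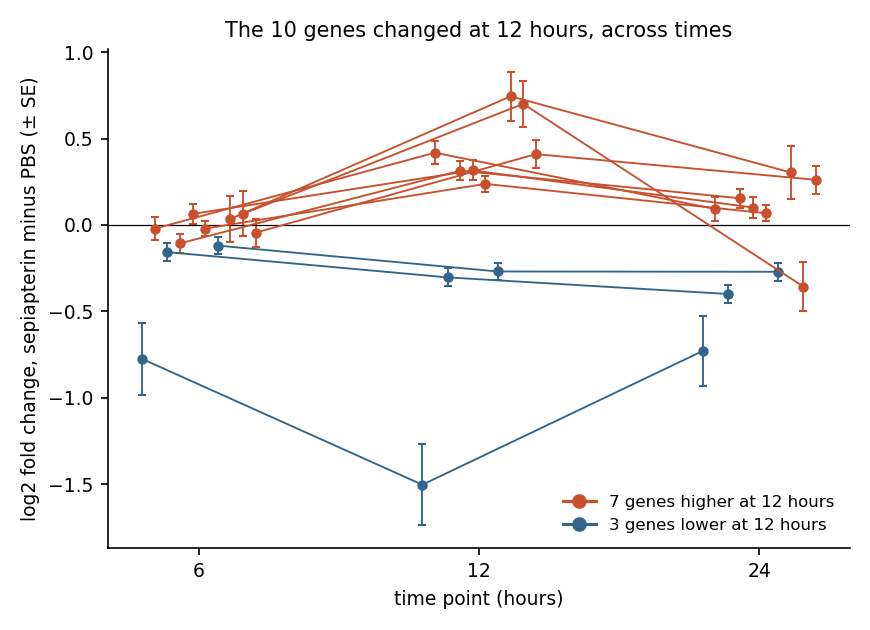
Log2 fold change (sepiapterin minus PBS, with SE) at 6, 12 and 24 hours for the 10 genes changed at 12 hours, 1 line per gene, red for the 7 that rose and blue for the 3 that fell. The blue lines are below 0 at all 3 times, while the red lines lie near 0 at 6 hours and 1 of them, ENSRNOG00000029042, is negative at 24 hours.

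Read the other way, of the 344 genes called higher at 24 hours 179 (52.0%) had a positive log2 fold change at 12 hours, against 50.2% of all genes tested. At 12 hours 0 of them were called with edgeR, where 0.0499% of all genes were called higher. Of the 474 called lower at 24 hours, 276 (58.2%) were negative at 12 hours, against 49.8% of all genes, and 3 were called, where 0.0214% of all genes were called lower. Genes are not independent, and no test was made of these shares.

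Whether the effect at 12 hours differed from that at another time was tested as a difference of effects. Between 12 and 6 hours, 0 genes (0%) differed with edgeR, with 879 at an unadjusted p under 0.05, while DESeq2 called 2 and limma voom with quality weights 13. ENSRNOG00000010210 had the smallest p, with a difference of 0.42 ± 0.08 log2 units (SE) and an adjusted p of 0.24. Between 12 and 24 hours 143 genes (1.02%) differed, 68 with the higher effect at 12 hours and 75 with the lower. The fitted effects had opposite signs in 138 of the 143 (96.5%) and in 47.3% of all genes tested, but choosing genes by a difference favours opposite signs by itself. Their median absolute log2 fold change was 0.128 at 12 hours and 0.243 at 24 hours, against 0.0833 and 0.1014 over all genes tested. Of them, 110 were called at 24 hours, where 5.83% of all genes were called. At 12 hours 1 was called, ENSRNOG00000029042, where 0.0713% of all genes were. The 143 genes were chosen with these same libraries, so their calls and effect sizes at either time are not independent of the choice.

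The 4 genes described next had the smallest p in each direction between 12 and 24 hours and were chosen after their values were seen. ENSRNOG00000031706 stood at 9.50, 9.01 and 7.57 CPM with sepiapterin and 11.3, 10.8 and 11.2 CPM in controls at 12 hours, and at 21.5, 21.1 and 15.0 CPM with sepiapterin and 10.6, 11.9 and 10.3 CPM in controls at 24 hours. Its controls were thus nearly level while the sepiapterin libraries lay below them at 12 hours and above them at 24 hours, a difference of -1.16 ± 0.18 log2 units (SE) with an adjusted p of 0.013. ENSRNOG00000013850 averaged 23.6 ± 1.46 CPM with sepiapterin and 29.4 ± 4.63 CPM in controls at 12 hours, and 36.0 ± 2.47 CPM with sepiapterin and 26.4 ± 2.24 CPM in controls at 24 hours (SD, n = 3 each), a difference of -0.76 ± 0.13 with an adjusted p of 0.027. ENSRNOG00000060211 went the other way. It averaged 72.4 ± 6.26 CPM with sepiapterin and 62.9 ± 3.32 CPM in controls at 12 hours, and 58.5 ± 1.98 CPM with sepiapterin and 72.5 ± 2.33 CPM in controls at 24 hours, a difference of 0.51 ± 0.10 with an adjusted p of 0.027. At 12 hours alone these 3 genes missed the threshold, with adjusted p-values of 0.15 to 0.21. With the other libraries as controls their differences kept their direction and call, at adjusted p-values of 0.0072 to 0.021. Each was lost in some alternatives, where adjusted p-values reached 0.43. ENSRNOG00000029042 had a difference of 1.06 ± 0.19 (adjusted p 0.027), against 0.32 with the other libraries as controls (adjusted p 0.57), and its adjusted p ran from 0.00045 to 0.57 over its alternatives.

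The number of changed genes moved when any of the 6 libraries was left out, and with the test. It was 4 without sepiapterin sample 105, 0 without 106 (2073 genes under an unadjusted p of 0.05) and 0 without 107 (1214 genes). It was 0 without control sample 10 (1251 genes), 4 without 11 and 2 without 12, all with edgeR. Each of these fits sets 2 libraries against 3 and so has less power, and the counts do not single out a library. For the difference between 12 and 24 hours the counts were 1, 54 and 0 without sepiapterin samples 105, 106 and 107, and 0, 1 and 26 without control samples 10, 11 and 12. Over the alternatives run, 9 of the 10 genes kept their direction. ENSRNOG00000029042 had log2 fold changes of -0.03 to 0.85, with no clear direction at the low end. Among the 3 that fell, ENSRNOG00000012404 lay between -1.58 and -1.23, ENSRNOG00000013009 between -0.37 and -0.25 and the third gene between -0.31 and -0.23. Of those that rose, ENSRNOG00000018126 lay between 0.27 and 0.47 and ENSRNOG00000010210 between 0.21 and 0.39. The other 4 ran from 0.16 to 0.27, from 0.20 to 0.34, from 0.33 to 0.49 and from 0.51 to 0.88.

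**Figure D5:**
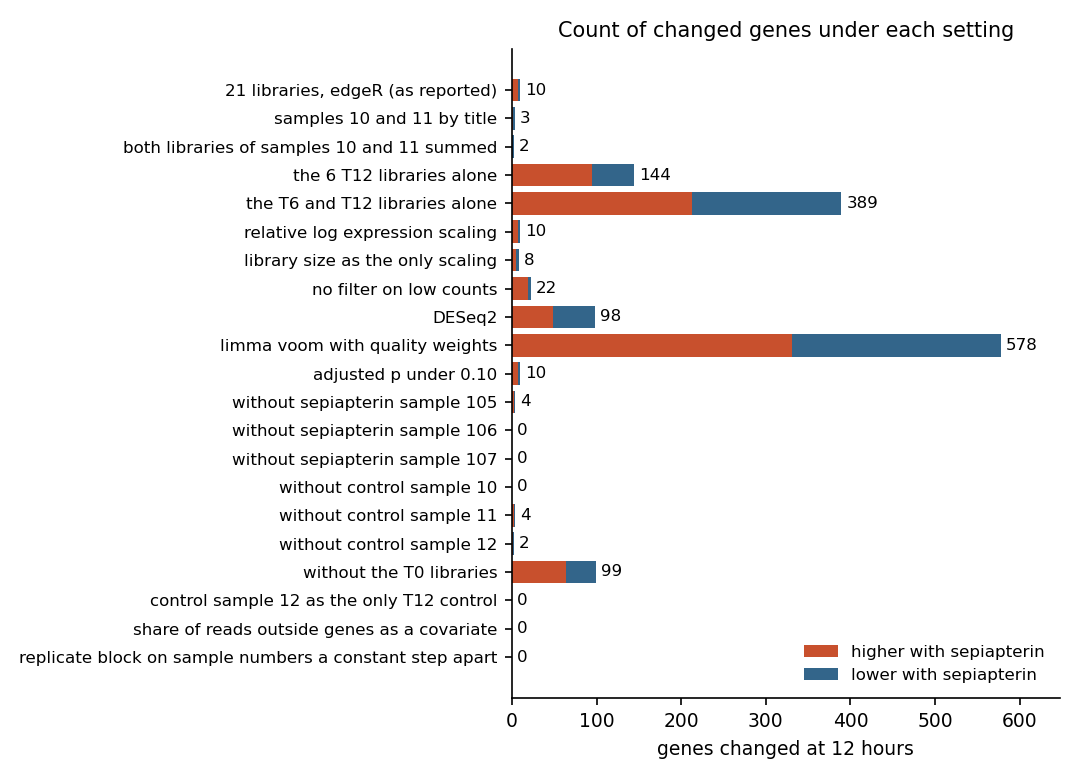
Number of genes changed at 12 hours under each setting, split into genes higher (red) and lower (blue) with sepiapterin. The count of 10 as reported falls to 4 or fewer when any of the 6 libraries is left out, and reaches 389 with the libraries of 6 and 12 hours alone and 578 with limma voom.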

How the data were processed

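RNA was sequenced as stranded polyadenylated libraries made from 500 ng of total RNA, per the labels' protocols. The tables the authors deposited hold raw counts of reads for each gene. The submitters' processing notes name cutadapt 1.8, STAR 2.5.2b, HTSeq 0.6.1 and the build Rnor_6.0. The sources used here give neither the strand setting nor the annotation release, and genes that overlap on opposite strands or have near-identical copies are uncertain. Library sizes and tests excluded 5 summary lines, of which reads outside genes held 14.8 to 17.1% and reads aligned to several places 23.5 to 25.0% of alignments tallied. The reference table, of another assembly, held 47357 genes and no Ensembl identifiers, so 28 gene lists by symbol were not used.

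The members and lists were chosen with earlier results of these data known. The 21 libraries of 7 groups were fitted together with edgeR 4.0.16 (R 4.3.3): TMM scaling, filterByExpr with a minimum count of 10, robust quasi-likelihood with 14 residual degrees of freedom, and Benjamini-Hochberg adjustment over 14027 genes. Standard errors are the absolute log2 fold change over the square root of F, and give the 95% intervals. Levels are TMM-scaled CPM. DESeq2 1.42.0, limma 3.58.1, other scalings, no filter, other sets of libraries and leaving out single libraries were alternatives. The fits without 0 hour libraries, with 1 control, with the covariate and with a block on sample numbers were chosen after seeing the data. Distances use log2 CPM with a prior count of 2. The naming rule covered every called gene and, as fewer than 24 passed, further genes whose groups do not overlap, but it limited genes without a symbol to 2 identifiers per direction, taken by smallest p. The 4 genes of the difference between 12 and 24 hours were chosen after their values were seen. The script was tested on simulated data. Depth per library was 16991417 to 26588314 reads in genes, and the median standard error of a T12 log2 fold change was 0.079.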

Additional observations from a re-analysis of the deposited data

Results flagged for a closer look

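The effect of sepiapterin differed between 12 and 24 hours, by edgeR's test of the difference itself, for the 4 genes named above. The difference (12 minus 24 hours) was 1.06 log2 units for ENSRNOG00000029042, 0.51 for ENSRNOG00000060211, -1.16 for ENSRNOG00000031706 and -0.76 for ENSRNOG00000013850. All 4 lost their calls without sepiapterin sample 107, without control sample 10, and with the share of reads outside genes as a covariate. With the other libraries as controls, the difference of ENSRNOG00000029042 was 0.32 (edgeR adjusted p 0.57), while the rest kept their calls. The 24 hour libraries belong to the second library batch per the labels. Each effect is taken against controls of its own time. The labels do not settle whether the libraries used for control samples 10 and 11 share a batch with the 12 hour sepiapterin libraries. The first of these genes is also the one whose library used and other library differed by -1.09 and -1.04 log2 units in control samples 10 and 11. The part of library preparation in these differences was not tested.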

How the results depend on the processing

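The count of 10 genes at 12 hours was 3 with samples 10 and 11 taken by title (2 shared), 2 with both libraries of each summed (2 shared), 144 with the 6 libraries of 12 hours alone (9 shared), 389 with those of 6 and 12 hours, 22 without a filter, 98 with DESeq2 (6 shared), 578 with limma voom, 99 without the 0 hour libraries, 0 with control sample 12 as the only control (1026 genes at an unadjusted p under 0.05) and 0 with the share of reads outside genes as a covariate. The lone control in that fit for sample 12 is assumed to vary like the other groups. DESeq2 gave an adjusted p to 6010 genes at 12 hours and to 8800 between 12 and 24 hours. The 6 shared genes are all of the 10 that received one at 12 hours. The rest of the 10 have 18 alternatives in place of 19 for this reason. Both other scalings and an adjusted p under 0.10 kept the count between 8 and 10. The count of 0 between 12 and 6 hours was 2 with DESeq2 and 13 with limma voom. The count of 143 between 12 and 24 hours was 33 by title, 33 with libraries summed, 426 with DESeq2, 1443 with limma voom, 414 without the 0 hour libraries, 0 with control sample 12 alone and 0 with the covariate. Leaving out single T12 libraries gave 0 to 4, 0 to 1 and 0 to 54 genes in the 3 comparisons. Among single genes ENSRNOG00000029042 lost its rise by title, at -0.026 (edgeR adjusted p 0.95), with no clear direction. The causes of these shifts were not tested. The labels do not pair samples, but each sepiapterin sample number lies 95 above a control number. With these numbers as a replicate block, chosen after seeing the data, edgeR called 0 genes at 12 hours (1787 at an unadjusted p under 0.05, smallest adjusted p of the named genes 0.096), 0 between 12 and 6 hours (762) and 30 between 12 and 24 hours (27 shared), with 8 residual degrees of freedom. Deviations of same-numbered libraries correlated at 0.004, -0.26 and -0.28 at 12 hours, and 3 of 9 pairs, all at 24 hours, correlated best with their own number, so the numbers are no evidence of pairing at 12 hours. Genes averaging under 1 CPM could show only large changes at this depth.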
